A study of Campylomormyrus compressirostris and Campylomormyrus rhynchophorus and Campylomormyrus compressirostris x Campylomormyrus rhynchophorus with 15 samples.

Results

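The electric organ of 5 juvenile F1 hybrids was compared with that of 5 juvenile *Campylomormyrus rhynchophorus* (*rhy*), 10 of the 15 fish sequenced in the study. The hybrids came from a *C. compressirostris* (*com*) male and a *rhy* female, so the *rhy* genome is shared by both groups and the *com* genome is carried by the hybrids only. The remaining 5 fish, all *com*, did not enter the comparison. All 10 fish were bred and raised in captivity, were labelled with a length of 6 cm, and gave 1 poly(A) RNA-seq library each. Fish are named as in the labels, with rhy49 to rhy53 for *rhy* and comrhy59 to comrhy63 for the hybrids. The groups were set against each other because their electric organ discharge (EOD) differs at this stage, with a duration of 0.4 ms for hybrids and 5 ms for *rhy*. These durations describe the groups and were not tied to single libraries, and other passages of the study give shorter juvenile *rhy* pulses and somewhat longer pulses in some hybrids. Species, genome and EOD duration all separate the groups in the same way and cannot be told apart here, and the labels give no brood, sex or sequencing batch.

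The mormyrid electric organ derives from muscle. Its cells, the electrocytes, no longer contract and fire together when a motor nerve excites them. Inward sodium current drives the rising part of each pulse, potassium channels repolarise the membrane and set the resting potential, and the kinetics and density of these channels, together with the size and folding of the cell, are known to shape how long a pulse lasts. Vesicle release, cell junctions, extracellular matrix, energy supply and transcription factors of the muscle lineage are the other parts of the tissue that the named genes below belong to. In such whole tissue, fewer cells of a type and less RNA per cell cannot be told apart.

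Library totals were 12502114 to 13927972 counts in *rhy* and 12973350 to 19259304 in the hybrids, and 19739 to 22336 of 34492 gene models had a count in a library. Levels are given as CPM, counts scaled to the size of each library. The first principal component, with 40.6% of the variance, separated the 5 hybrids from the 5 *rhy*. The median difference between pairs of fish, taken as the median absolute log2 difference over genes, was 0.30 between hybrids, 0.31 between *rhy* and 0.50 across the groups, and the lowest across-group pair (0.45) lay above the highest pair within *rhy* (0.34). The second component (14.2%) spread the hybrids apart, with comrhy59, comrhy61 and comrhy63 on one side and comrhy60 and comrhy62 on the other.

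**Figure D1:**
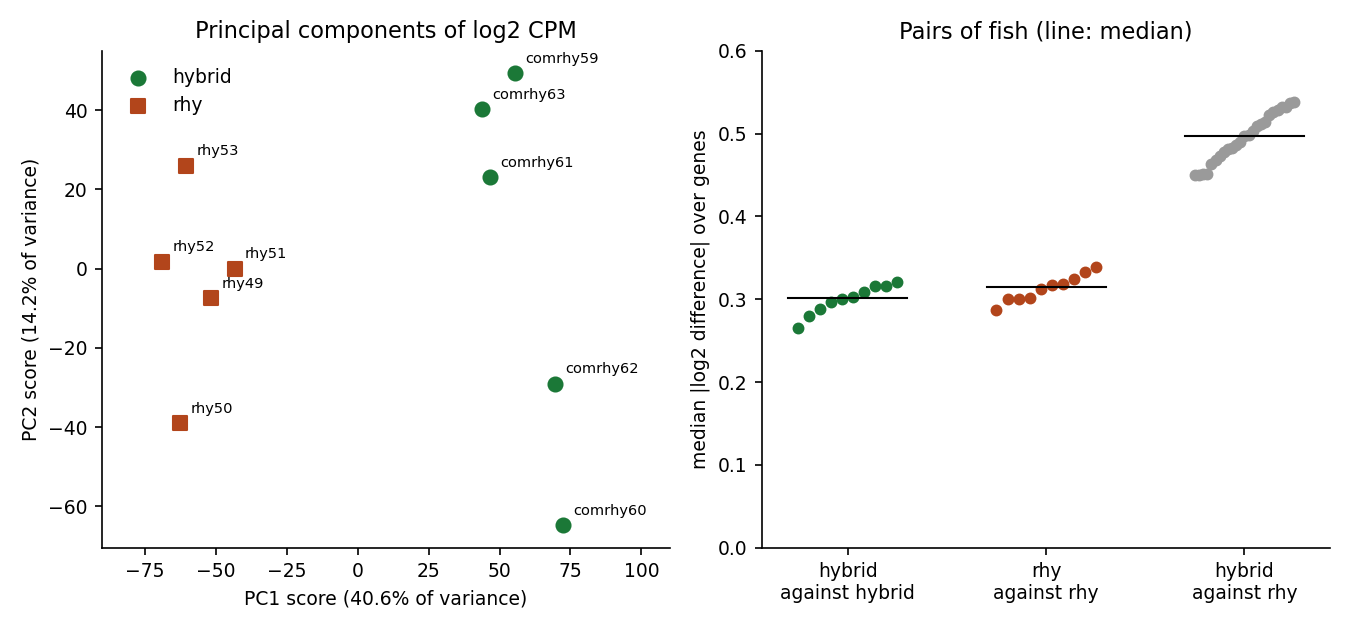
Left, scores of the 10 fish on the first 2 principal components of log2 CPM, with green circles for hybrids and brown squares for *rhy*. Right, the median absolute log2 difference over genes for each pair of fish, with the median of the pairs as a line. The medians are 0.30 within hybrids, 0.31 within *rhy* and 0.50 across the groups.

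Some hybrids stood apart from the others in sets of genes. Of 8939 genes with a mean of at least 10 CPM in the hybrids, 57 on 43 contigs were at least 4-fold higher in both comrhy59 and comrhy63 than in each of the other 3 hybrids, and 33 were so in comrhy60 and comrhy62. Each of the remaining 18 pairs of fish, *rhy* pairs included, shared 0 to 2 such genes. The 57 genes held 5.62% of all counts in comrhy59 and 1.70% in comrhy63, against 0.121 to 0.175% in the other hybrids and 0.155 to 0.634% in *rhy*. For example, the gene model maker-ptg000974l-augustus-gene-10.59 had 3723 CPM in comrhy59 and 1099.7 CPM in comrhy63, but 58.1 to 73.3 CPM in the other hybrids and 42.5 to 177 CPM in *rhy*. None of the 57 models carries a name in the tables used here, and the part of any other tissue in them was not tested. In the comparison below, 7 of the 57 (12.3%) were called higher and 1 lower, beside 7.40% and 4.83% of all genes tested. The 57 were picked by high values in comrhy59 and comrhy63, which are among the hybrids compared. Their share called higher depends on that choice and cannot be read against the share of all genes. Leaving out comrhy59 and comrhy63 together gave 1294 genes higher and 926 lower, and leaving out comrhy60 and comrhy62 gave 1094 and 726, against 1340 and 875 with all 5 hybrids. The genes called were not all the same. Of the 1340 and 875, 1058 and 717 were called again without comrhy59 and comrhy63. Without comrhy60 and comrhy62, 946 and 642 were called again.

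Markers of the tissue were looked up as far as the study names them. Of these, the study placed *KCNA7A_1*, *PPP1R3A*, *TYRP1*, *CLDN11*, *CADPS*, *DLGAP2* and the leukocyte markers among genes whose expression followed EOD duration. These fish were among its data, so neither the calls nor the direction of those markers are independent evidence. Both electrocyte markers, *SCN4AA* and *KCNA7A_1*, were read in every fish, and their summed level was 2849 to 3364 CPM in the hybrids and 897 to 1142 CPM in *rhy*. The 4 skeletal muscle markers also summed higher in the hybrids (1077 to 1323 against 498 to 764 CPM), with 1 of 4, *C10orf71*, called higher. Of the others, *TMOD4* and *PPP1R3A* lay above *rhy* in all hybrids, while *KLHL30* was 163 ± 5.84 CPM in the hybrids and 201 ± 24.9 CPM in *rhy* (SD, n = 5 each), with all hybrids below all *rhy*. The 4 leukocyte markers summed to low levels in both groups (1.59 to 5.28 and 3.27 to 5.65 CPM). Of these, 3 were tested and 0 called, with log2 fold changes from -0.70 to 4.88. The pigment marker *TYRP1* (2.07 to 5.33 against 14.8 to 44.3 CPM) and the myelin marker *CLDN11* (49.6 to 67.7 against 97.3 to 207 CPM) were lower in the hybrids. The study also lists *CLDN11* as upregulated in adult electric organ, so it need not mark myelin alone. The 3 nerve ending markers summed lower too (153 to 214 against 355 to 457 CPM), but only the most abundant, *SYNGR3*, was called lower, and *CADPS* and *DLGAP2* were called higher. Endothelial markers summed to 134 to 236 CPM in the hybrids and 574 to 739 CPM in *rhy*, a gap seen in *CD34*, while *FGD5* was 76.8 ± 11.3 CPM (SD, n = 5) in the hybrids and 87.1 ± 14.4 CPM in *rhy*. Their part in the gene differences below was not tested.

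Between hybrids and *rhy*, 18111 genes were tested and 2215 were called (12.2%), with a call meaning an adjusted p under 0.05 in edgeR and a change of more than 2-fold. Of these, 1340 (7.40%) were higher in the hybrids and 875 (4.83%) were lower. Without the fold limit, 5718 genes (31.6%) passed, split almost evenly into 2816 higher and 2902 lower. Changes of more than 4-fold were called for 500 genes higher and 242 lower in the hybrids, and changes of more than 16-fold for 130 and 43. The excess of genes higher in the hybrids lay among the less expressed genes. In the lowest quintile of mean level, 9.63% of genes were called higher and 3.75% lower, while in the highest quintile the shares were 4.97% and 5.33%. Thinning every library to the lowest total gave 10% and 4.12% in the lowest quintile, so the excess was also seen with equal library totals. All reads were counted on gene models of the *com* genome, which only the hybrids carry, and its part in the excess was not tested.

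**Figure D2:**
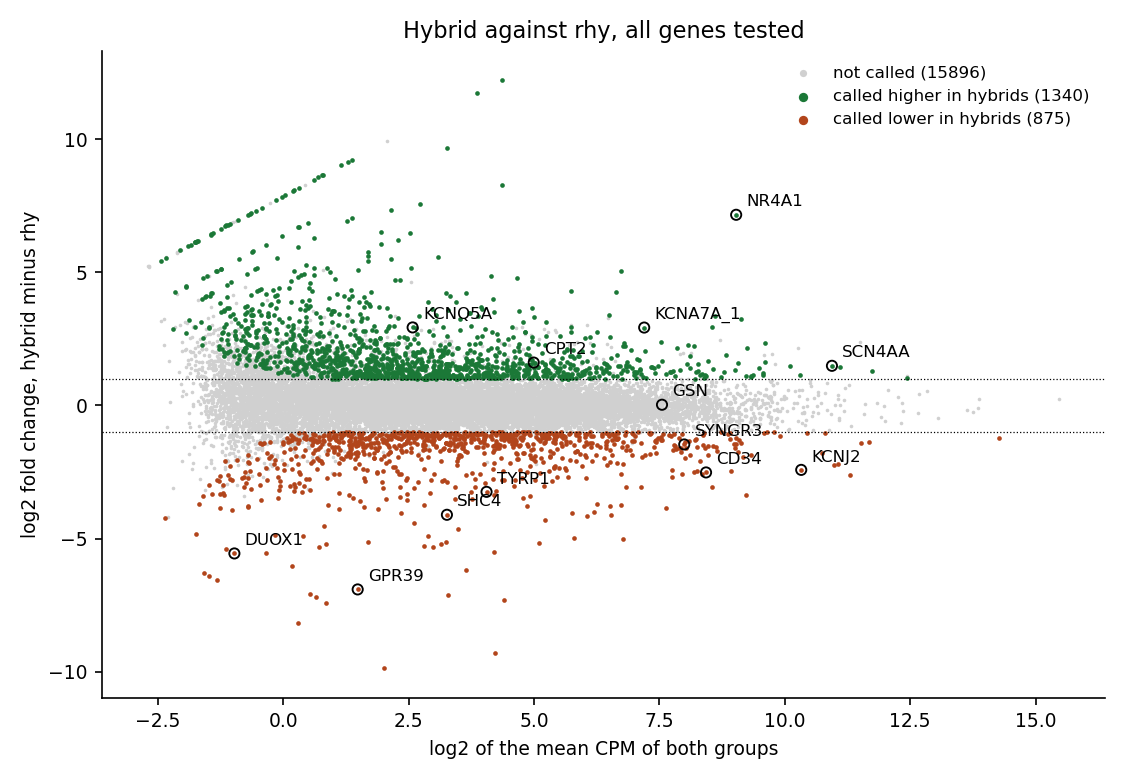
Log2 fold change (hybrid minus *rhy*) against the log2 of the mean CPM of both groups, 1 point per gene tested, with the fold limit dotted. Green points are the 1340 genes called higher in the hybrids and brown points the 875 called lower; 13 named genes are circled. *NR4A1* (7.16) stands out among the abundant genes, and green points crowd the low levels at the left.

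Ion channels and transporters moved in both directions. Of 13 named members, 11 passed the filter on low counts, and 5 of these were higher (45.5%) and 3 lower (27.3%) in the hybrids, beside 7.40% and 4.83% of all genes tested. The median log2 fold change was 0.20 against 0.04 over all genes. The study chose 107 of the 143 named models because their expression followed EOD duration, with these fish among its data. Its allele table marks *HIP1* and *PPP1R3A* as falling with EOD duration too. For all of these, here and in the lists below, neither the number called nor the direction is independent evidence. The shares set beside those of all genes are descriptions and do not show an excess of calls in a list.

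*SCN4AA* encodes the voltage-gated sodium channel alpha subunit of the electric organ (gene model maker-ptg001188l-snap-gene-6.0). Its level was 2624, 3098, 2809, 2976 and 2979 CPM in comrhy59 to comrhy63, and 1092, 1118, 1072, 869 and 1006 CPM in rhy49 to rhy53. The groups lay far apart with little spread, and the hybrid mean was 2.81-fold higher (log2 fold change 1.49, SE 0.09, adjusted p = 2.2e-06, edgeR). This gene came from the study's allele table, which was chosen by allele share and not by total level. The model maker-ptg001188l-snap-gene-6.4 on the same contig, by its number a close neighbour, had the same change (1.5) at 2416 ± 335 TPM (SD, n = 5) against 842 ± 109 TPM.

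Potassium channels that repolarise the membrane were higher in the hybrids. *KCNA7A_1*, a Shaker-type voltage-gated potassium channel, had 225, 267, 289, 258 and 256 CPM in the hybrids and 33.2, 24.7, 38.7, 28.6 and 45 CPM in *rhy*. The lowest hybrid lay far above the highest *rhy*, and the mean was 7.61-fold higher (log2 fold change 2.93, SE 0.16, adjusted p = 8.6e-07, edgeR). *KCNQ5A*, a member of the slowly activating Kv7 family, was read at low counts but changed by the same factor. It had 11.5, 11.7, 12.2, 7.59 and 9.82 CPM in the hybrids, and 1.80, 0.963, 2.12, 0.921 and 1.07 CPM in *rhy* (log2 fold change 2.93, SE 0.27, adjusted p = 1.7e-05, edgeR).

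The inward rectifier *KCNJ2*, which holds the membrane near its resting potential, showed the opposite direction (maker-ptg000265l-est_gff_est2genome-gene-6.33). It had 416, 370.1, 408, 354 and 476 CPM in the hybrids and 2388, 2467, 1596, 2680.4 and 1688 CPM in *rhy*. Every hybrid lay far below every *rhy*, and the mean in *rhy* was 5.35-fold higher (log2 fold change -2.42, SE 0.16, adjusted p = 2.9e-06, edgeR). Within *rhy*, rhy51 and rhy53 had lower levels than the other 3 fish.

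Of the other members, the glutamate receptor subunit *GRIA3* was 3.44-fold higher in the hybrids (22.9 ± 4.28 against 6.67 ± 0.752 CPM, SD, n = 5 each, log2 fold change 1.78). The sodium leak channel *NALCN* was called higher (1.13), though its groups overlapped between 2.36 and 3.01 CPM. *TMEM233*, a small membrane protein known in mammals to associate with sodium channels, was 40.3 ± 19.3 CPM in the hybrids and 148 ± 33.4 CPM in *rhy* (log2 fold change -1.88). The sodium, calcium and potassium exchanger *SLC24A2* was lower as well (-1.26), but without comrhy60 and comrhy62 its change of -0.99 fell just inside the fold limit. *CACNA2D1* and *PKD1* did not pass the test (0.20 and -0.16), and *ATP13A2*, a lysosomal transport ATPase with all *rhy* above all hybrids, differed by less than the fold limit (-0.56, adjusted p = 0.0092, edgeR).

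**Figure D3:**
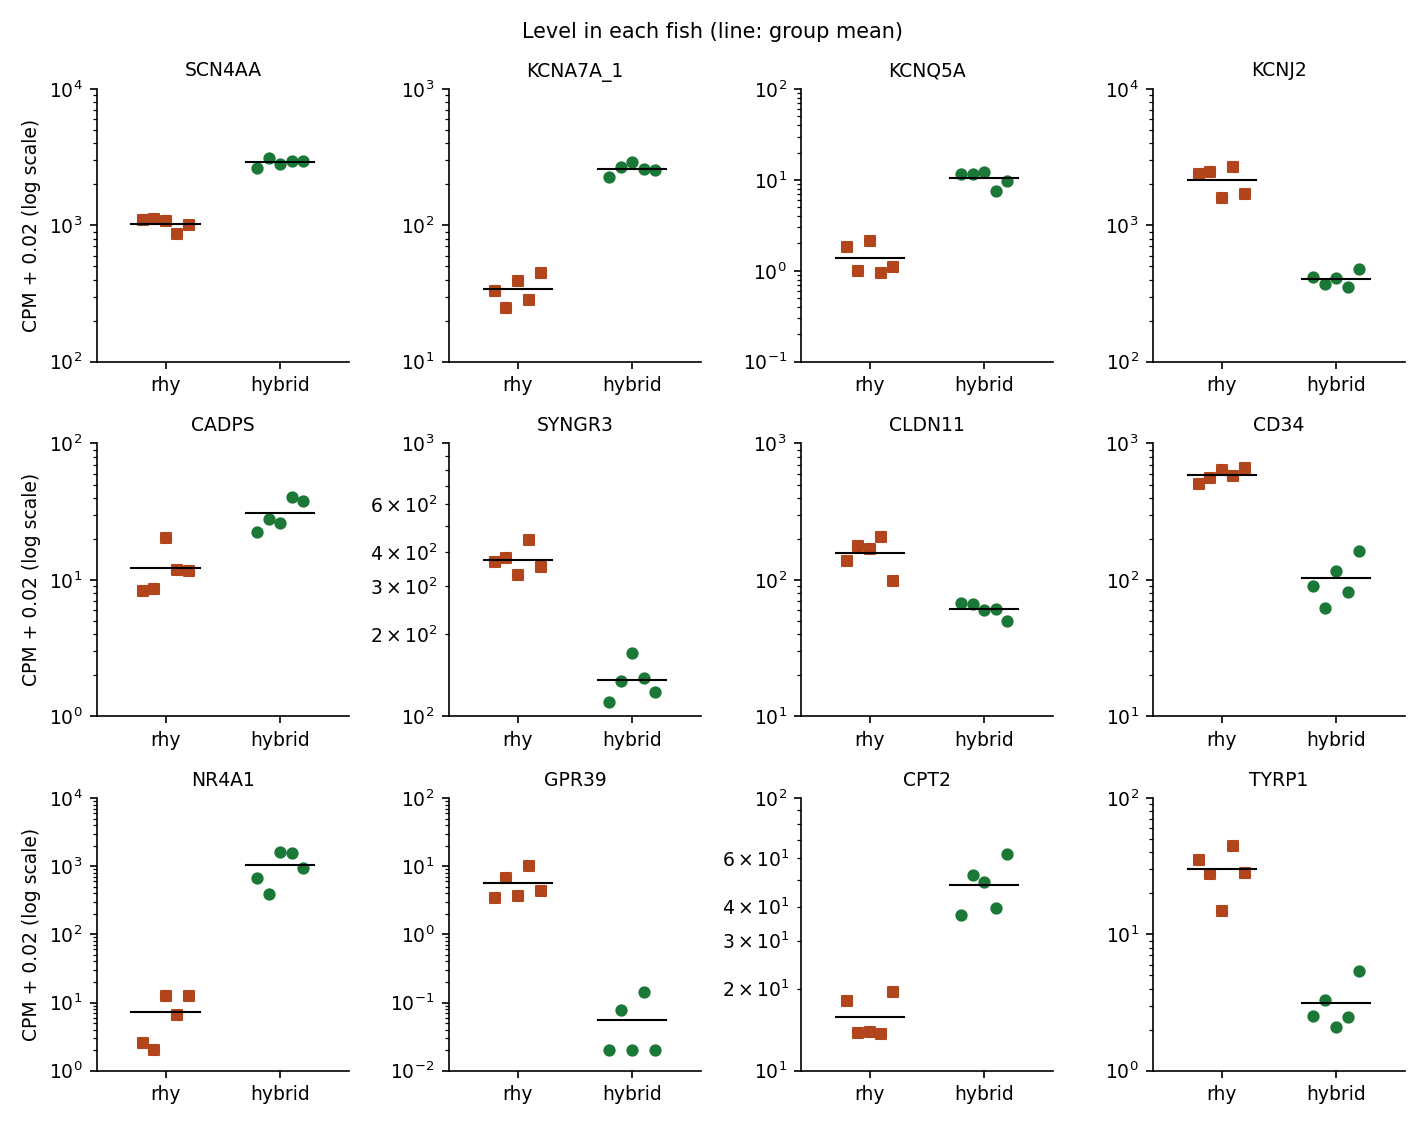
Level of 12 named genes in each of the 5 *rhy* (brown squares) and 5 hybrids (green circles), with the group mean as a line, on log axes of CPM plus 0.02. In each of the 12 panels the groups do not overlap. *SCN4AA*, *KCNA7A_1*, *KCNQ5A*, *CADPS*, *NR4A1* and *CPT2* are higher in the hybrids and the other 6 are lower. The panels were picked, and several genes were named by a rule that required separation. *CPNE7*, *GSN*, *MIPOL1* and *RYBP*, whose groups overlap, are not shown. Over all genes tested, all hybrids lay above all *rhy* in 10.8%, and the reverse held in 11.5%.

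Of 14 tested members of vesicle release and membrane traffic, 2 were higher (14.3%), 1 was lower (7.14%) and 11 were not called, beside 7.40% and 4.83% of all genes, and the median was 0.10. *CADPS*, a priming factor of dense-core vesicle exocytosis, had 22.5, 28.1, 25.9, 40.5 and 38.1 CPM in the hybrids and 8.23, 8.59, 20.4, 11.8 and 11.5 CPM in *rhy*. Only rhy51 came close to the lowest hybrid, and the mean difference was 2.56-fold (log2 fold change 1.36, SE 0.25, adjusted p = 0.0019, edgeR). *SYNGR3*, a protein of the synaptic vesicle membrane, went the other way, from 329 to 441 CPM in *rhy* down to 113 to 171 CPM in the hybrids (-1.46, SE 0.12, adjusted p = 1.1e-05, edgeR). *GRAMD2A*, a protein of contact sites between endoplasmic reticulum and plasma membrane, was 2.95-fold higher in the hybrids. *CPNE7*, a calcium-dependent membrane-binding copine, had a log2 fold change of 0.98 that did not pass the test (adjusted p = 0.092, edgeR), with 0.863 to 3.40 CPM in the hybrids and 0.502 to 1.33 CPM in *rhy*. Without comrhy60 it passed (1.16, adjusted p = 0.046, edgeR). *HIP1*, an adaptor of clathrin-coated vesicles, differed by less than the fold limit (0.52, SE 0.13), although all 5 hybrids lay above all 5 *rhy*.

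Adhesion, junction and extracellular matrix genes had a median of 1.34, the highest of the 7 lists, with 9 of 16 tested members higher in the hybrids and 2 lower (12.5%), beside 7.40% and 4.83% of all genes called. Over all genes tested, all 5 hybrids lay above all 5 *rhy* in 10.8% of genes, and the reverse held in 11.5%. The 4 members with the largest separated increase were *CYR61* (2.61), *CLDN7* (2.23), *ADAMTS15* (1.79) and *PTPRD* (1.6). The study placed all 4, and *PCDH11*, *PCDH15*, *LSR* and *COL4A6* below, among genes falling with EOD duration, with these fish among its data. The median of the list, its rank and its share called higher are therefore not independent evidence. *CYR61*, a matrix protein that binds integrins and is known to respond to mechanical load, had 25.1, 21.8, 33.5, 20.6 and 32.1 CPM in the hybrids and 12.7, 2.89, 3.50, 0.586 and 2.06 CPM in *rhy*, where rhy49 alone came near the hybrids. *ADAMTS15*, a secreted metalloprotease that cuts proteoglycans, was 19.3 ± 4.10 against 5.57 ± 1.63 CPM (SD, n = 5 each). *PTPRD*, a receptor phosphatase that organises synapses, was 20.3 ± 2.12 against 6.66 ± 1.55 CPM. The tight-junction claudin *CLDN7* was low in both groups (1.4 to 5.0 and 0.167 to 1.26 CPM) and was not called without comrhy60 and comrhy62 (adjusted p = 0.081, edgeR). *PCDH11*, *PCDH15*, *SCARF1*, *LSR* and *COL4A6* were also higher, by 1.0 to 2.32.

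A pair of members was lower in the hybrids. *CD34*, a surface sialomucin of endothelial and progenitor cells, had 90.0, 62.2, 116, 80.9 and 164 CPM in the hybrids and 506, 555, 634, 581 and 659 CPM in *rhy*, a 5.72-fold difference of the means (log2 fold change -2.52, SE 0.23, adjusted p = 1.7e-05, edgeR). *CLDN11*, the claudin that seals myelin in mammals, had 67.7, 66.1, 60.1, 61 and 49.6 CPM against 137, 178, 168, 207 and 97.3 CPM (-1.37, SE 0.18, adjusted p = 0.00017, edgeR). All hybrids were below all *rhy* in both genes, which the rule for naming *CD34* required.

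Of 15 tested members of the cytoskeleton and motor list, 1 was higher (6.67%, near the 7.40% of all genes tested) and 0 were lower, with a median of 0.55. The member called was *DNALI1*, an axonemal dynein light intermediate chain (1.92), and its groups overlapped. *GSN*, the actin-severing gelsolin, was 189 ± 71.7 CPM in the hybrids and 186 ± 66.2 CPM in *rhy* (log2 fold change 0.03, SE 0.27, adjusted p = 0.95, edgeR), with a wide spread in both groups. *TMOD4*, a capping protein of muscle thin filaments, had a log2 fold change of 0.81.

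**Figure D4:**
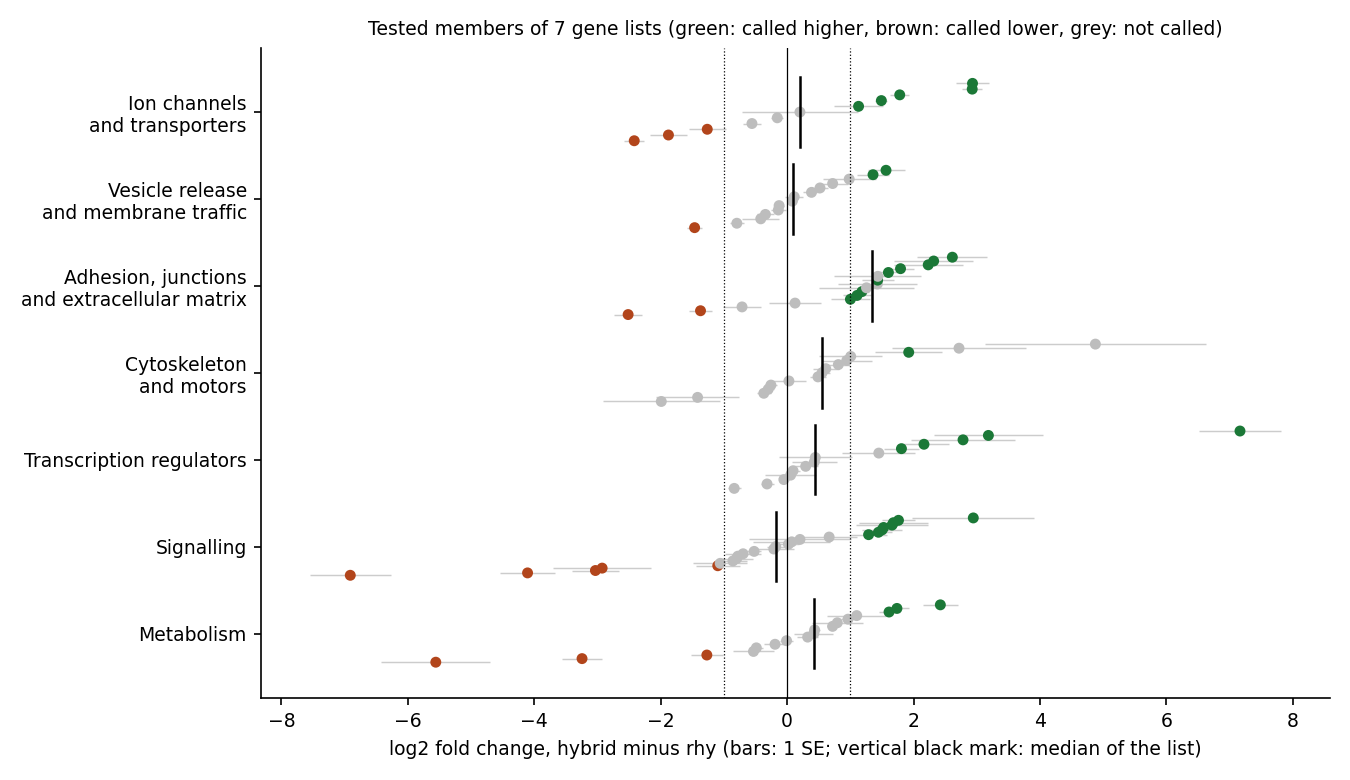
Log2 fold change (hybrid minus *rhy*) with 1 SE for each tested member of 7 gene lists, with the median of a list as a black mark. Green members were called higher in the hybrids, brown members lower, and grey members were not called. The adhesion list has its median at 1.34, and the transcription list has 5 members higher and 0 lower. Many members were chosen by the study because their expression followed EOD duration, with these fish among its data. Their calls and directions, and the medians of the lists that hold them, are not independent evidence.

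Among transcription regulators, 5 of 14 tested members were higher in the hybrids (35.7%, beside 7.40% of all genes), 0 were lower (beside 4.83%), and 9 were not called (median 0.44). The study placed every regulator named in this paragraph among genes falling with EOD duration, with these fish among its data. Their calls and direction are therefore not independent evidence. *NR4A1*, an orphan nuclear receptor known in muscle as an immediate early gene induced by activity and stress, had the log2 fold change of largest size among all named genes. Its level was 669, 391, 1633, 1556 and 939.7 CPM in the hybrids, but 2.51, 2.0, 12.3, 6.61 and 12.6 CPM in *rhy*. Even the lowest hybrid was far above the highest *rhy*, and the means differed 144-fold (log2 fold change 7.16, SE 0.65, adjusted p = 1.8e-05, edgeR). The labels give no sampling time or handling by fish. *MYOCD*, a coactivator of muscle genes, was 2.25 ± 0.624 against 0.236 ± 0.386 CPM (3.18). *DACH1_a*, a transcriptional cofactor of the retinal and muscle lineages, was 1.73 ± 0.701 against 0.378 ± 0.0823 CPM (2.16). *SOX11*, a factor of neural and mesenchymal progenitors, was 11.7 ± 3.70 against 3.33 ± 1.11 CPM (1.81). These 3 genes were weakly expressed, with all hybrids above all *rhy*, which the rule for naming them required. *DACH1_b*, another model of the *DACH1* gene on the same contig, is not described here. *RYBP*, a component of Polycomb complexes, was not called (0.43, SE 0.35, adjusted p = 0.38, edgeR).

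Of 25 tested signalling genes, 8 were higher (32%) and 5 lower (20%) in the hybrids, beside 7.40% and 4.83% of all genes, and the median was -0.18. *GPR39*, a zinc-sensing G protein-coupled receptor, gave 3 counts over the 5 hybrids (0, 0.0575, 0, 0.122 and 0 CPM) and 3.37, 6.67, 3.57, 9.88 and 4.27 CPM in *rhy*. That is a 145-fold ratio with a 95% counting interval of 49.1 to 705 (adjusted p = 1.9e-05, edgeR). *SHC4*, an adaptor of receptor tyrosine kinases that is known in mammals from the postsynaptic side of the neuromuscular junction, was 0.690 to 1.63 CPM in the hybrids and 6.82, 33.6, 23.3, 16.3 and 10.7 CPM in *rhy* (-4.11, SE 0.43). *ADRA2B*, an alpha-2 adrenergic receptor, was 7.98 ± 5.16 against 65.7 ± 11.3 CPM (-3.03). *MST1R*, a receptor tyrosine kinase, was below 1 CPM in the hybrids (-2.93), and without comrhy59 and comrhy63 its adjusted p was 0.051 (edgeR).

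Other signalling genes were higher in the hybrids. *NOG2*, a noggin that blocks bone morphogenetic proteins, was 10.4 ± 2.54 against 3.04 ± 1.12 CPM (1.76). *ADGRA1_b*, an adhesion G protein-coupled receptor, was 3.25 ± 1.34 against 1.14 ± 0.179 CPM (1.5). *ADGRA1_a*, a model of the same name on another contig, is not described here. *CNKSR3*, a scaffold of sodium channel regulation in mammalian kidney, was called (1.68, adjusted p = 0.036, edgeR), but the call was lost without any of rhy51, rhy52, comrhy59, comrhy60, comrhy62 or comrhy63 (adjusted p = 0.051 to 0.079).

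Of 17 tested metabolic genes, 3 were higher and 3 lower (17.6% each, beside 7.40% and 4.83% of all genes), with a median of 0.42. *CPT2*, the inner-membrane enzyme that passes long-chain fatty acids to mitochondrial oxidation, had 37.1, 52.1, 49.4, 39.4 and 62.1 CPM in the hybrids and 18, 13.7, 13.8, 13.6 and 19.4 CPM in *rhy* (3.06-fold, log2 fold change 1.61, SE 0.17, adjusted p = 3.9e-05, edgeR). The groups did not overlap, and each hybrid was well above each *rhy*. The other members called higher were the cytosolic phospholipase *PLA2G4AB* (52.1 ± 18.6 against 9.70 ± 2.98 CPM, 2.42) and the fatty acid desaturase family member *FADS6* (46.4 ± 4.85 against 13.9 ± 4.43 CPM, 1.74).

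The members lower in the hybrids were of other kinds. *DUOX1*, a hydrogen peroxide-making NADPH oxidase, had 1 count in the hybrids and 66 in *rhy*, a ratio of 79.6 with a 95% counting interval of 13.8 to 3191. *TYRP1*, a melanosome protein of pigment cells, was 3.13 ± 1.31 against 30.1 ± 10.9 CPM (-3.24). *ADSS*, an enzyme of the purine nucleotide cycle, was 11.9 ± 4.81 against 28.7 ± 7.22 CPM (-1.27). *PPP1R3A*, which targets protein phosphatase 1 to glycogen in muscle, was above in all 5 hybrids (138 ± 8.37 against 71 ± 12.7 CPM) with a log2 fold change of 0.96, just inside the fold limit. It passed without rhy52 (1.06).

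Of the 7 genes that the study put forward for EOD development, 4 were called between these juveniles, beside 12.2% of all genes tested. The study took all 7 from groups that followed EOD duration, with these fish among its data, so these calls are not independent evidence. *KCNJ2* and *CLDN11* were lower in the hybrids, *CPT2* and *CADPS* were higher, and *CPNE7*, *MIPOL1* (-0.25, SE 0.31) and *RYBP* were not called. Requiring the change itself to exceed 2-fold lost the calls of *CLDN11* and *CADPS* (adjusted p = 0.16 and 0.38, glmTreat). Of 36 tested genes that the study placed in groups rising with EOD duration, 15 were lower (41.7%) and 0 higher in the hybrids. Of 61 in the falling group, 35 were higher (57.4%) and 0 lower. Of all genes tested, 4.83% were lower and 7.40% higher. The choice on these fish sets these calls and directions in part, so they are not independent evidence. The allele table was not chosen on total level. It also lists *KCNJ2*, which was counted above with the rising groups and was lower in the hybrids. The table marks *HIP1* and *PPP1R3A* as in the falling group too. Neither was called, and both are counted below and not with the 61. Of its other genes, 36 were tested, with 3 higher and 3 lower, shares of 8.33% each beside 7.40% and 4.83% of all genes tested. The 3 higher were *SCN4AA*, *SCARF1* and *C10orf71* (a muscle gene, 432 ± 42.1 against 119 ± 27.8 CPM), and the 3 lower were *CD34*, *SYNGR3* and *NCL*, the nucleolar protein nucleolin (528 ± 28.3 against 1066 ± 105 CPM).

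The largest changes fell on gene models with no name. Among models with at least 10 CPM in a group, maker-ptg000085l-snap-gene-4.14 had the largest decrease, with 0.228, 0, 0, 0 and 0.0522 CPM in the hybrids against 44.1, 34.2, 20.9, 46.5 and 39.4 CPM in *rhy*. The neighbouring model maker-ptg000085l-est_gff_est2genome-gene-4.12 had 1 count in the hybrids and 232 in *rhy*. At the other end, maker-ptg000160l-snap-gene-14.3 had 0 counts in all *rhy* and 30.6, 31.6, 54.5, 50.1 and 38.3 CPM in the hybrids, at least 896-fold higher when *rhy* is set to 3 counts in all. maker-ptg000688l-snap-gene-3.4 had 1 count in *rhy* and 17.9, 6.33, 22.8, 28.8 and 20.2 CPM in the hybrids. Of the 4 unnamed models with the largest increase, maker-ptg000102l-snap-gene-1.5 and maker-ptg000389l-snap-gene-3.48 were high in 3 hybrids only, and are described below. The remaining 3 of the largest decreases, on the contigs ptg000041l, ptg000314l and ptg000633l, had log2 fold changes of -7.32, -7.14 and -6.18, with no hybrid above 0.761 CPM.

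A gene was taken as near 0 in a group with at most 3 counts over its 5 fish, while each fish of the other group had at least 10. By this rule 12 genes were near 0 in *rhy*, 5 of them at 0, and 5 genes were near 0 in the hybrids, 2 of them at 0. In the *com* libraries, looked up for this purpose, 10 of the 12 had more than 3 counts over 5 fish. Of the 5 near 0 in the hybrids, 4 had at most 3 counts in *com*. The exception was maker-ptg000514l-snap-gene-9.2, with 9.64, 4.74, 9.41, 6.28 and 10.2 CPM in *rhy*, 103 to 291 counts in each *com* fish, and 0 counts in all 5 hybrids, so *rhy* was at least 215-fold higher than the hybrids. The opposite case was maker-ptg000802l-augustus-gene-1.101, with 197 counts over the hybrids, 1 count in *rhy* and 0 in *com*. Without comrhy63 the rule gave 20 genes near 0 in *rhy* and 9 in the hybrids, and without rhy51 it gave 19 in *rhy*.

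The most abundant transcripts were the same in both groups. By TPM, a library-scaled level that allows for gene length, snap_masked-ptg000024l-processed-gene-13.7 came first with 39886 ± 5402 TPM in the hybrids and 33103 ± 9399 TPM in *rhy* (SD, n = 5 each). The same 5 models led each group, 3 of them on contig ptg002578l, and none was called, though 2 models on ptg002578l passed the adjusted p with changes of 0.67 and 0.56. Among the 100 most abundant models, 12 were higher and 9 lower in the hybrids, 21% against 12.2% of all genes tested. Without comrhy59 and comrhy63, 5 were higher and 9 lower (14%), and all of these were among the 21. Of the calls lost, 2 changed sign: maker-ptg000974l-augustus-gene-10.59, described above as high in those fish, went from 3.23 to -0.68, and snap_masked-ptg000869l-processed-gene-20.110 went from 3.38 to -0.48. Of the 9 lower, maker-ptg001220l-augustus-gene-3.48 (767 ± 340 against 6583 ± 881 TPM, -3.07) and its neighbour maker-ptg001220l-snap-gene-3.120 (-3.36) had the largest decreases. Both were singled out after their values were seen.

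Called genes were spread over the genome. Of 555 contigs with at least 10 tested genes, 262 held calls in both directions and 77 held none. The highest shares of genes higher in the hybrids were on ptg001903l (5 of 14) and ptg001098l (5 of 16), and the highest shares lower were on ptg000091l and ptg000683l (3 of 10 each). Contig medians ran from -0.73 to 0.98. Contig ptg000514l held 2 of the 5 genes near 0 in the hybrids.

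Some gene models were on in some hybrids and off in others. With at most 3 counts in at least 2 fish and at least 50 counts in the rest, a rule chosen after seeing the data, 14 models on 13 contigs were split among the hybrids and 5 among the *rhy*. A looser limit of 10 counts gave 41 and 14. The clearest was maker-ptg000102l-snap-gene-1.5, with 46.3, 52.6 and 46.2 CPM in comrhy60, comrhy62 and comrhy63, 0.0761 and 0.222 CPM in comrhy59 and comrhy61, and 0 counts in all *rhy*, while all 5 *com* fish had at least 50 counts. By contrast, maker-ptg000021l-snap-gene-33.0 was read in comrhy59 and comrhy61 (32.9 and 32.7 CPM), and the other 3 hybrids had 0 to 0.0612 CPM. Another model, maker-ptg000474l-snap-gene-6.46, was high in comrhy61 and comrhy62 (15.5 and 16.2 CPM) and at 0 in the other 3. The 14 models showed 8 different sets of high fish. At the looser limit, 15 of the 41 were high in comrhy60 and comrhy62 only and 8 in comrhy59 and comrhy63 only, the same pairs that shared high genes above.

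Of the 14 models split among the hybrids, 5 had at most 3 counts in every *rhy*, and 0 had at least 50 counts in every *rhy*. For 3 of the 5 models split among the *rhy*, all 5 hybrids had at least 50 counts. In such models the group mean describes no fish. At the looser limit only, maker-ptg000389l-snap-gene-3.48, called higher at 8.30 (SE 1.71), had 61, 74.3 and 68.2 CPM in comrhy59, comrhy60 and comrhy62 but 0.517 and 0.0522 CPM in comrhy61 and comrhy63.

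**Figure D5:**
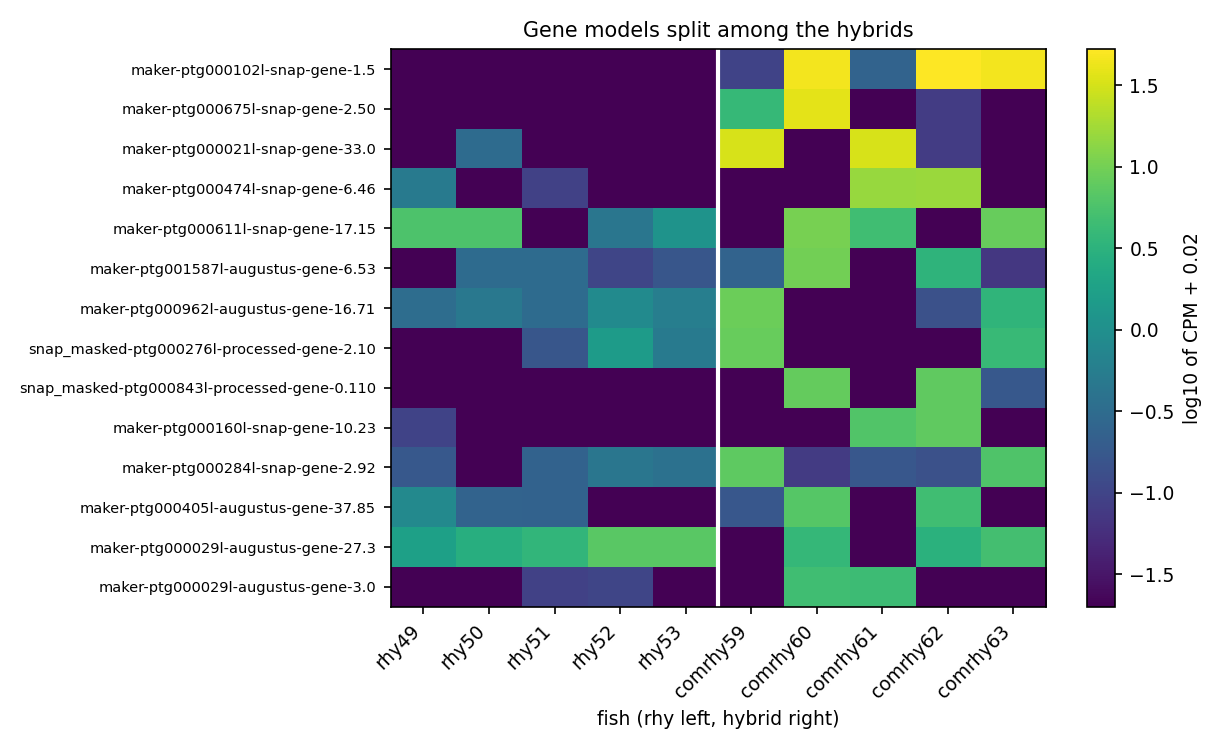
Log10 of CPM plus 0.02 for the 14 gene models split among the hybrids (rows), in the 5 *rhy* (left) and the 5 hybrids (right). In each row 2 or 3 hybrids are high, in 8 different combinations of fish. Some rows are bright in *rhy* as well. In maker-ptg000029l-augustus-gene-27.3, *rhy* had 1.73 to 7.04 CPM and the highest hybrid 4.96 CPM.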

How the data were processed

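Strand-specific poly(A) libraries were cleaned by the authors with Trimmomatic (version 0.39), and RSEM then quantified the reads on *com* gene models. The deposited expected counts (1 file per fish) were rounded; the deposited TPM values of RSEM, scaled by the authors to the same sum in each library, served for levels and 1 alternative, and the deposited effective lengths (another column of the authors' files) for an offset. Of 34492 models, 18111 exceeded 10 counts in 2 or more of these 10 libraries and were tested with edgeR (version 4.0.16, R version 4.3.3): TMM scaling, quasi-likelihood test, Benjamini-Hochberg adjustment over all genes tested, common dispersion 0.101. This replaces the DESeq2 test of the authors, which was run as an alternative (version 1.42.0), beside limma (version 3.58.1). CPM are library-scaled counts after TMM, and log2 fold changes are hybrid minus *rhy*. Principal components used log2 CPM with a prior count of 2. Summaries used Python (version 3.11.15). No 2 libraries of a group were copies. Each replicate is 1 fish, and p-values weigh the difference between the groups against the spread between these fish. Counting intervals cover counting error only.

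Gene names came from the tables printed in the study: 153 of 158 identifiers matched a model and 143 distinct models had a legible name, some read with the help of the printed description. Genes were named by rule: the candidates of the study and 6 other channel, vesicle and muscle genes, up to 4 separated calls per list and direction, the 4 most changed unnamed models per direction, the 3 highest genes near 0 in 1 group, the 5 most abundant models, the 2 contigs with the highest share called in each direction, and named genes with 1 fish apart. *ELP3*, *PABPC4*, *C18orf21* and other genes outside the rule were chosen after their values were seen. Members and lists were chosen with earlier results of these data known. Simulated data held 17656 genes, with 100 changed by 1.5 and 100 by 3 on the log2 scale. Of these, 76% and 100% were found, with 3 false calls. The changed genes were drawn only from those above a limit on mean count, and recovery was not split by expression level. These shares therefore do not cover the weakly expressed genes. The *com* libraries entered 1 alternative and look-ups, not the main test, and the reference sequence and adult libraries were not used here. A result on 1 named gene is not reported here.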

Additional observations from a re-analysis of the deposited data

Results flagged for a closer look

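Each named gene was checked for 1 fish lying apart from the other 4 of its group. The check used CPM, and on a log scale other fish can stand apart. Of 105 groups of 5 checked, 1 had such a fish, where chance alone gives about 1 in 20. It was *CYR61* in rhy49, with 12.7 CPM against 0.586 to 3.50 CPM in the other *rhy*. *CYR61* was called higher in the hybrids with every fish included and without each fish in turn.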

How the results depend on the processing

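The count of called genes stayed within 1.5 times of 2215 under 10 alternatives of scaling, filter, depth, samples, unit, tool and p adjustment (1964 to 2759), and leaving out each fish gave 1875 to 2210 calls (1114 to 1361 higher and 761 to 893 lower, lowest without rhy52). Requiring the change itself to exceed 2-fold (glmTreat) left 520 calls, 289 higher and 231 lower, and dropping the fold limit gave 5718, 2816 higher and 2902 lower; both follow from the limit itself. No named gene that was called changed sign. Of 56 named genes, 50 had the same call under every alternative apart from glmTreat, which lost 13 of 45 calls, and no fold limit; the other 6 are *CLDN7*, *CNKSR3*, *CPNE7*, *MST1R*, *PPP1R3A* and *SLC24A2*. Genes near 0 depended on the limits: a floor of 10 counts gave 33 in *rhy* and 11 in the hybrids, at least 30 counts in the other group gave 5 and 2, leaving out each fish gave 12 to 20 and 5 to 9, and leaving out comrhy59 with comrhy63 gave 23 and 10 and comrhy60 with comrhy62 gave 8 in the hybrids. Without a filter, the median difference between fish was 0.32 within hybrids and 0.29 within *rhy*. No paired analysis was possible because the groups share no fish numbers. The pairs of hybrids were left out together after seeing the data. Depth limits the weakly expressed genes most, and reads were counted on *com* gene models in both groups.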

Other observations

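A few named genes outside the lists above were also lower in the hybrids. The study placed all 3 among genes that rise with EOD duration, so neither their calls nor their direction are independent. *ELP3*, the catalytic subunit of the elongator complex, had 12.5 to 18.8 CPM in the hybrids and 44.1 to 49.5 CPM in *rhy* (log2 fold change -1.65, SE 0.12, adjusted p = 3.8e-06, edgeR). *C18orf21* was 0.854 ± 0.121 CPM against 21.5 ± 8.35 CPM (SD, n = 5 each, -4.64). *PABPC4*, a poly(A)-binding protein, was 599 ± 191 against 1315 ± 159 CPM (-1.14). None of the 3 overlapped between the groups, but they were chosen after their values were seen. Over all genes tested, all *rhy* lay above all hybrids in 11.5%.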
